A study of Homo sapiens and Mus musculus with 24 samples.

Results

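The genes described here encode the subunits of the oxidative phosphorylation complexes, the machinery of the mitochondrial inner membrane that turns the oxidation of nutrients into ATP. They were chosen by name: protein-coding genes whose symbols begin with NDUFA, NDUFB, NDUFC, NDUFS, NDUFV, UQCR, ATP5 or COX with a number from 4 to 8, together with SDHA, SDHB, SDHC, SDHD, CYC1 and the 13 protein genes of the mitochondrial chromosome, without the NDUFAF assembly factors and without pseudogenes. Among 58051 genes counted in human this rule took 104, of which 91 are nuclear, and among 29307 counted in mouse it took 86. The rule used names only and no measured value. RNA was sequenced from 4 lines of Caco-2, a line from a human colorectal carcinoma that can take on features of enterocytes: the parental WT line, ΔDNMT3A, in which the DNA methyltransferase gene DNMT3A was deleted by CRISPR/Cas9, and ΔDNMT3A cells given back either the long isoform (DNMT3A1) or the short isoform (DNMT3A2). ΔDNMT3A and both re-expression lines were grown from single cells, so that each is 1 clone, and the isoforms were tagged and driven by a CMV promoter from an integrated piggyBac vector. Both re-expression lines therefore carry the DNMT3A deletion of ΔDNMT3A. The mouse samples were EpCAM-positive colonic epithelial cells at steady state from adult Dnmt3a fl/fl mice and from Dnmt3a ΔIEC mice, which carry the same floxed alleles and a Cre recombinase driven by the Villin promoter, active in intestinal epithelium. There were 4 libraries of WT, 4 of ΔDNMT3A, 3 of DNMT3A1 (replicate 3 was not analysed here), 4 of DNMT3A2 and 4 of each mouse genotype.

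Complex I passes electrons from NADH to ubiquinone, complex II passes them from succinate, complex III hands them to cytochrome c, and complex IV passes them to oxygen. The proton gradient built up by complexes I, III and IV drives complex V, the ATP synthase. Complex II is made from nuclear genes alone, whereas the others combine nuclear subunits with the 13 proteins of the mitochondrial chromosome, so that their assembly needs both genomes. In the colon, epithelial cells draw on this chain to burn butyrate from the gut microbiota. Among factors known for control of the nuclear genes are NRF1 and ETS proteins such as GABPA, which bind short motifs close to start sites.

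The promoters of 3 genes that hold such motifs in the bases before the start site are shown, those of UQCRQ and SDHA because both genes fell by 1.5-fold or more in DNMT3A1, and that of COX6B1 because its levels are followed across the lines below. The sequences are from RefSeq (GRCh38.p14, plus strand, the 250 bases before the RefSeq start, inside which the annotation of the count tables already begins these genes). Capitals mark the ETS letters CCGGAAG or their reverse complement in COX6B1 (chr19:35648073-35648322) and UQCRQ (chr5:132866392-132866641), and the NRF1 letters GCGCANGCG in SDHA (chr5:218070-218319).
COX6B1: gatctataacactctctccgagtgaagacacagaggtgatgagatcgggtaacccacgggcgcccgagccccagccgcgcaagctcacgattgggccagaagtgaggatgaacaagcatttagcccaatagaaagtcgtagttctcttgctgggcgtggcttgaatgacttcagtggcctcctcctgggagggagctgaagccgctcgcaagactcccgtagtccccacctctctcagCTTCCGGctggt
UQCRQ: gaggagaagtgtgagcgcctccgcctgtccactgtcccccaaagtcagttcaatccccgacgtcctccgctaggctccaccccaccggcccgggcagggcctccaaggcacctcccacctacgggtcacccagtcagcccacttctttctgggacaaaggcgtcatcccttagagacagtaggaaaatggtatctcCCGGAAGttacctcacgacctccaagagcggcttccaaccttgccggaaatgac
SDHA: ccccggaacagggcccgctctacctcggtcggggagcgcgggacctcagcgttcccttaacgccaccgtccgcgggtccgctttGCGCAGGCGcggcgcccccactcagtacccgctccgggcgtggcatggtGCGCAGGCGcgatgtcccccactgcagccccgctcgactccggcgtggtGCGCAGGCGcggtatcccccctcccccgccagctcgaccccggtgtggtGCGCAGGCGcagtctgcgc
The SDHA promoter holds 4 copies of the NRF1 letters at equal spacing, from bases 85, 134, 183 and 232. RefSeq promoters of 300 bases (250 before and 50 after the start) were found for 71 of the nuclear subunit genes, with 84 start sites. The NRF1 letters, read on both strands, were in 28.6% of these 84 promoters and in 7.52% of all 35116 promoters. The ETS letters were in 26.2% against 10.3%, the YY1 letters AAGATGGCG in 11.9% against 1.75%, the NF-Y letters CCAAT in 34.5% against 34.6%. The Sp1 letters GGGCGG were in 52 of the 84 promoters (61.9%) and in 15786 of all 35116. The median number of CpG dinucleotides, the bases that DNMT3A methylates, was 22 in the promoters of the subunit genes and 14 in all promoters. In DNMT3A1 against ΔDNMT3A, genes with the NRF1 letters had a median log2 fold change of -0.21 (23 genes), those without -0.35 (43 genes). For the ETS letters the medians were -0.42 (21 genes) and -0.30 (45 genes). In DNMT3A2 against ΔDNMT3A they were -0.28 and -0.25 for NRF1 and -0.36 and -0.25 for ETS. Whether the letters bear on these values was not tested. A match of letters is a description of the sequence alone, and DNA methylation was not analysed here.

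The 15 Caco-2 libraries held 22104408 to 42161299 reads on genes and the 8 mouse libraries 16943626 to 24921248. The WT libraries had 64.6 ± 2.27 CPM of DNMT3A itself (SD, n = 4), which fell to 20.7 ± 1.22 CPM (SD, n = 4) in ΔDNMT3A. The DNMT3A1 libraries had 38 ± 1.23 CPM (SD, n = 3) and those labelled DNMT3A2 21.9 ± 1.40 CPM (SD, n = 4), whose difference from ΔDNMT3A missed the threshold (log2 fold change 0.07, adjusted p = 0.272). Gene counts alone therefore did not show the re-expression named in the DNMT3A2 label. The study reports immunoblots that showed no DNMT3A protein in ΔDNMT3A and re-expression of each isoform. It also reports both isoforms in nuclei by immunofluorescence. Protein was not analysed here. In the mouse, Dnmt3a fell from 93.9 ± 7.70 to 46.1 ± 3.30 CPM (SD, n = 4 each, adjusted p = 0.000763). CPM are counts scaled by TMM library size, and p-values are from edgeR's quasi-likelihood test, adjusted over all genes tested, with 0.05 as the threshold. Nothing states that the libraries of a line came from separate cultures, so that p-values measure the spread between these libraries, which may be technical. In bulk RNA, fewer cells of a type and less RNA per cell cannot be told apart.

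Together, the nuclear subunit genes took a smaller share of the reads in both re-expression lines than in WT and ΔDNMT3A. Their share was 1.31% to 1.35% of reads on genes in the WT libraries and 1.36% to 1.42% in ΔDNMT3A. It was 1.11% to 1.17% in DNMT3A1 and 1.14% to 1.15% in the libraries labelled DNMT3A2, with no overlap between either re-expression line and WT or ΔDNMT3A. The 13 mitochondrial genes took 0.546% to 0.617% in WT, 0.572% to 0.618% in ΔDNMT3A, 0.459% to 0.499% in DNMT3A1 and 0.377% to 0.433% in DNMT3A2. For these, WT and ΔDNMT3A overlapped, and the re-expression lines lay below both and apart from each other.

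**Figure D1:**
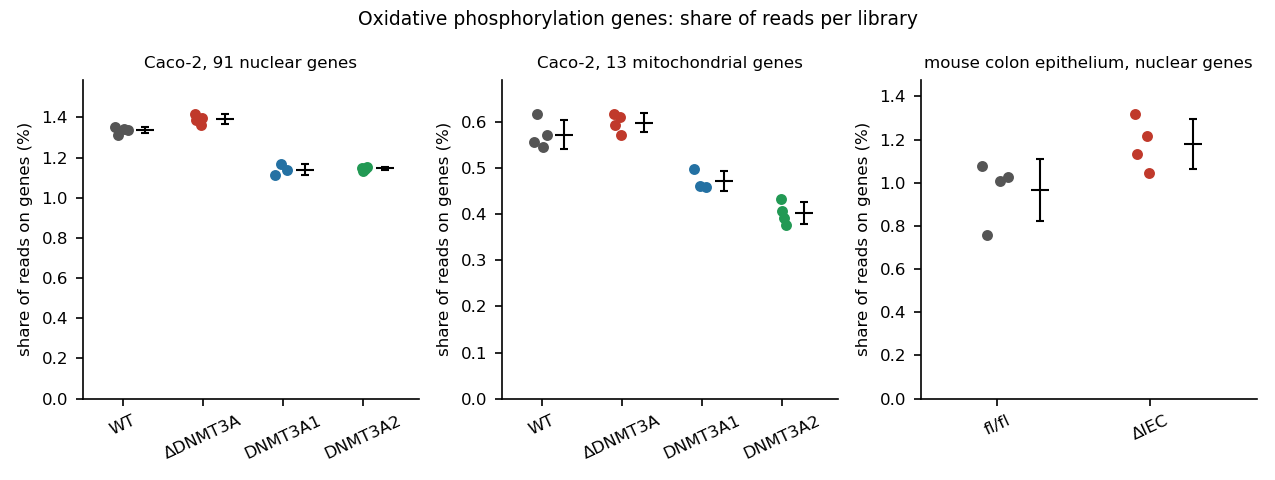
Share of all reads on genes (y axis, %, from 0) that fell on the nuclear subunit genes (left) and the mitochondrial protein genes (middle) of the Caco-2 lines, and on the nuclear subunit genes of mouse colonic epithelium (right). Points are libraries and bars are mean and SD. The DNMT3A1 and DNMT3A2 libraries lie below all WT and ΔDNMT3A libraries, at 1.11% to 1.17% for the nuclear genes, whereas the mouse groups overlap because 1 ΔIEC library (1.04%) lies below the highest fl/fl library (1.08%).

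Per kilobase of the counted gene length, mitochondrial genes led the levels. In WT, MT-CO3 was at 3010 ± 130 CPM per kb, MT-CO1 at 1230 ± 72.2 and MT-CO2 at 962 ± 36.1 (SD, n = 4). These genes encode the catalytic core of complex IV. Of the nuclear genes, ATP5F1B, the catalytic β subunit of ATP synthase, was highest at 577 ± 8.44 CPM per kb, followed by COX8A at 322 ± 17.6. Subunits with a second, tissue-specific isoform were present as the common form. COX6A2, COX7A1 and COX8C had at most 1 count in any Caco-2 library, COX4I2 and COX7B2 at most 2 and COX6B2 at most 4, whereas their partners COX6A1, COX7A2, COX8A, COX4I1, COX7B and COX6B1 were all above 100 CPM in WT. NDUFA4L2, the relative of NDUFA4 that is known for induction by low oxygen, had 20 to 36 counts per library. For it no comparison passed the threshold. In all, 95 of the 104 genes passed the filter on low counts in every Caco-2 comparison. The 9 that did not were COX6A2, COX4I2, COX6B2, COX7A1, COX7B2, COX8C, ATP5MGL and the read-through genes NDUFC2-KCTD14 and ATP5MF-PTCD1.

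The comparison of ΔDNMT3A with WT addresses what the loss of DNMT3A does to these genes. More rose than fell, by small amounts. Of the 95 tested, 47 were higher in ΔDNMT3A and 16 lower, beside 31.2% higher and 31.0% lower of all 16654 genes tested. Their median log2 fold change was 0.08, that of all genes -0.005. None differed by 1.5-fold or more, where 9.40% of all genes were higher and 8.76% lower by that much. In complex III 6 of 10 rose and 1 fell, and in complex II 2 of 4 rose and none fell. In complex I 16 of 37 rose and 9 fell, in complex V 9 of 18 rose and 4 fell, and in complex IV 5 of 13 rose and 1 fell. Of the 13 mitochondrial genes 9 rose and MT-CO3 fell, with a median log2 fold change of 0.29.

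NDUFB5, an accessory subunit of complex I, had the highest log2 fold change of ΔDNMT3A against WT. It was at 127, 126, 122 and 124 CPM in WT and at 184, 179, 188 and 192 CPM in ΔDNMT3A, which is 0.56 as log2 fold change (standard error 0.028, adjusted p = 1.64e-14). MT-ND1, a core subunit of complex I, was at 38.8, 55.4, 45.2 and 45.9 CPM in WT and at 62.1, 90.9, 59.4 and 60.5 CPM in ΔDNMT3A (log2 fold change 0.56 with a standard error of 0.101, adjusted p = 4.09e-05). COX7A2L, which joins complexes III and IV into supercomplexes, rose from 106 ± 2.38 to 157 ± 3.95 CPM (SD, n = 4 each, log2 fold change 0.55). For each of these genes the ΔDNMT3A libraries lay above all WT libraries. NDUFA5, another accessory subunit of complex I, fell most, from 98.6, 100.2, 93.0 and 94.3 CPM to 62.9, 64.7, 64.2 and 67.7 CPM (log2 fold change -0.58 with a standard error of 0.033, adjusted p = 1.97e-13). ATP5MF, in the membrane part of ATP synthase, fell by 0.43 on the log2 scale, and UQCRC1, a core protein of complex III, fell by 0.33.

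The nuclear genes with the largest differences between ΔDNMT3A and WT moved with their neighbours on the chromosome. For each gene, the median log2 fold change of the 50 tested genes nearest to it was taken, the gene itself left out. This median was 0.54 around NDUFB5 (chr3:179604690-179627647) and 0.59 around COX7A2L (chr2:42333546-42425088). It was -0.41 around NDUFA5 (chr7:123536997-123558255), -0.45 around ATP5MF (chr7:99448475-99466331) and -0.34 around UQCRC1 (chr3:48599002-48610976). Coordinates are those of the GRCh38 count tables. With the neighbours' median taken out of the fit, which was added once the data had been seen, the log2 fold change was 0.02 for NDUFB5, -0.04 for COX7A2L, 0.01 for ATP5MF and 0.02 for UQCRC1, none of them past the threshold, and NDUFA5 was lower past it, at -0.17 (adjusted p = 8.81e-05). Over all 95 genes this setting gave 50 higher and 12 lower. ATP5F1D, the δ subunit of ATP synthase, stood apart from its neighbours. It was at 37.2, 37.4, 39.5 and 37.9 CPM in WT and at 52.8, 50.7, 55.6 and 47.6 CPM in ΔDNMT3A, a difference of 0.43 on the log2 scale beside -0.009 for the genes around it. Whether the copy number of these regions differs between the clones was not tested.

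**Figure D2:**
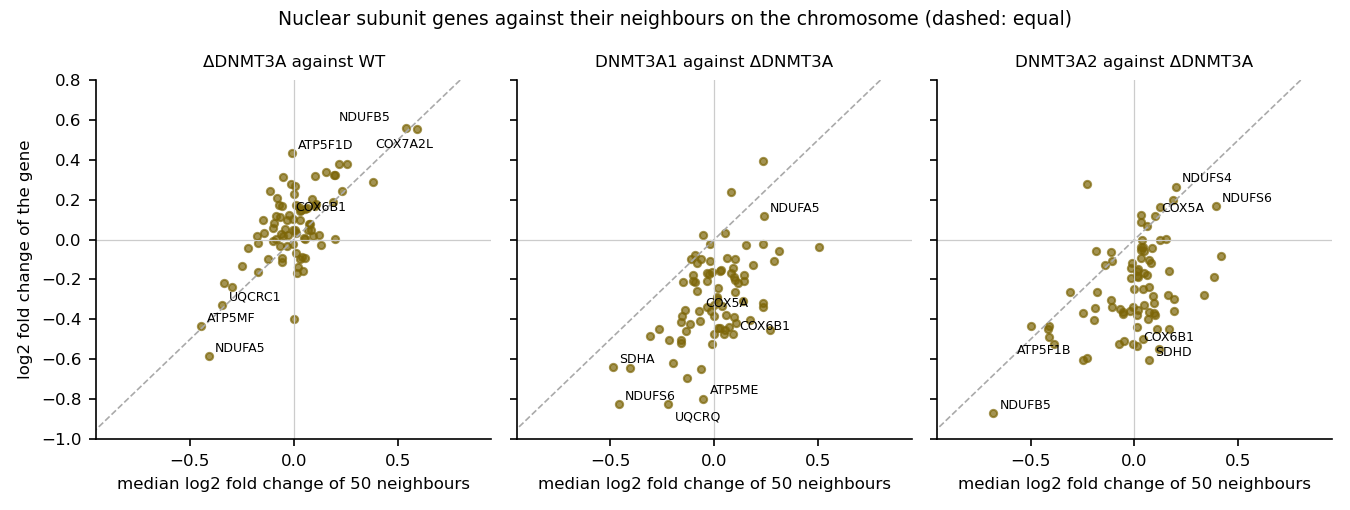
Log2 fold change of each nuclear subunit gene (y axis) against the median log2 fold change of the 50 tested genes nearest to it (x axis), in the Caco-2 lines. Points on the dashed line moved as their neighbours did. In ΔDNMT3A against WT, NDUFB5, COX7A2L, ATP5MF and UQCRC1 lie close to the line, whereas in both re-expression lines most points lie below it.

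Re-expression of DNMT3A1 in ΔDNMT3A addresses what the long isoform does in cells that lack DNMT3A. The line also differs from ΔDNMT3A by vector, puromycin selection and a second cloning, and no empty-vector line was among the samples. These cannot be told apart from the isoform. Almost all subunit genes that differed were lower in DNMT3A1. Of the 95 tested, 75 were lower and 1 higher, beside 30.3% lower and 30.4% higher of all 16860 genes tested. The median log2 fold change was -0.26, that of all genes 0.01. By complex, 10 of 10 genes of complex III, 4 of 4 of complex II, 17 of 18 of complex V, 11 of 13 of complex IV and 27 of 37 of complex I fell, as did 6 of the 13 mitochondrial genes. At 1.5-fold or more, 9 genes were lower and none higher, beside 7.60% and 11.3% of all genes. These 9 were UQCRQ, NDUFS6, SDHA, MT-CO3 and 5 subunits of ATP synthase (ATP5ME, ATP5PF, ATP5MK, ATP5F1C and ATP5F1D). With the neighbours' median taken out, SDHA was at -0.15, ATP5F1C at -0.24, NDUFS6 at -0.37 and ATP5F1D at -0.42. ATP5PF was then at -0.56, ATP5MK at -0.585, UQCRQ at -0.61 and ATP5ME at -0.745. Complex V had the lowest median log2 fold change of the complexes, -0.45, and complex I the one nearest to 0, -0.18. Among core subunits of complex I encoded in the nucleus, NDUFS1, NDUFS3, NDUFS7 and NDUFS8 fell, by 0.11 to 0.38 on the log2 scale, and NDUFV1 and NDUFV2 did not pass the threshold (log2 fold changes -0.08 and 0.24). NDUFV2 has 3226 reads over all Caco-2 libraries beside 389 on its pseudogene copy, so that its counts are uncertain.

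UQCRQ, a small subunit of complex III that binds near cytochrome b, fell most in DNMT3A1. It was at 196, 186, 195 and 183 CPM in ΔDNMT3A and at 105, 103 and 114 CPM in DNMT3A1, which is -0.83 as log2 fold change (standard error 0.038, adjusted p = 2.92e-13), beside -0.22 for its neighbours. NDUFS6, a zinc-binding accessory subunit of complex I (chr5:1801400-1816605), was at 95.3, 92.9, 94.0 and 95.7 CPM in ΔDNMT3A and at 51.4, 53.7 and 54.9 CPM in DNMT3A1 (log2 fold change -0.82 with a standard error of 0.037, adjusted p = 2.36e-13), beside -0.46 for its neighbours. ATP5ME, in the membrane part of ATP synthase, fell from 90.8 ± 3.53 CPM (SD, n = 4) to 52.3 ± 1.36 CPM (SD, n = 3), a difference of -0.80 on the log2 scale, beside -0.05 for its neighbours. For all 3 genes each DNMT3A1 library lay below each ΔDNMT3A library. The 1 gene that was higher, NDUFA5, had a log2 fold change of 0.12 (adjusted p = 0.0152), beside 0.24 for its neighbours. The threshold was missed for NDUFA5 without ΔDNMT3A replicate 1 (adjusted p = 0.0624), without DNMT3A1 replicate 4 (adjusted p = 0.0956) and by DESeq2 (adjusted p = 0.0555), and with the neighbours' median taken out NDUFA5 was lower (-0.12, adjusted p = 0.0115). Without ΔDNMT3A replicate 2, 7 subunit genes were called higher in DNMT3A1, without DNMT3A1 replicate 1 there were 2, and without ΔDNMT3A replicate 1 or DNMT3A1 replicate 4 none.

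In the libraries labelled DNMT3A2, which address the short isoform with the same limit, most subunit genes were likewise lower than in ΔDNMT3A. Of the 95 tested, 73 were lower and 6 higher, beside 34.1% lower and 33.8% higher of all 16431 genes tested, with a median log2 fold change of -0.28 (0.004 over all genes). By complex, 16 of 18 genes of complex V, 8 of 10 of complex III, 10 of 13 of complex IV, 27 of 37 of complex I and 3 of 4 of complex II fell, as did 9 of the 13 mitochondrial genes. At 1.5-fold or more, 7 genes were lower and none higher, beside 14.2% and 9.83% of all genes. They were MT-ND3, NDUFB5, MT-CO1, UQCR10, SDHD, ATP5F1B and MT-CO2. MT-ND3, a core subunit of complex I, was at 284, 263, 239.9 and 264 CPM in ΔDNMT3A and at 142, 148, 137 and 140.3 CPM in DNMT3A2 (log2 fold change -0.90 with a standard error of 0.038, adjusted p = 6.11e-16). NDUFB5 fell from 185 ± 5.62 to 102 ± 4.75 CPM (SD, n = 4 each, log2 fold change -0.87), beside -0.68 for its neighbours. MT-CO1 was at 2414, 2330, 2283 and 2299 CPM in ΔDNMT3A and at 1550, 1589, 1490 and 1421 CPM in DNMT3A2 (log2 fold change -0.63, adjusted p = 5.33e-15). In each of these genes the groups did not overlap. The 6 higher genes were NDUFS4, NDUFA5, NDUFS6, NDUFAB1, COX5A and ATP5IF1, with log2 fold changes from 0.07 to 0.27. With the neighbours' median taken out, 71 genes were called lower and 1 higher, which was none of these 6 but UQCRH, the hinge protein of complex III (0.13, adjusted p = 6.35e-05), named once its value had been seen. Both re-expression lines are compared here with the same 4 ΔDNMT3A libraries.

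**Figure D3:**
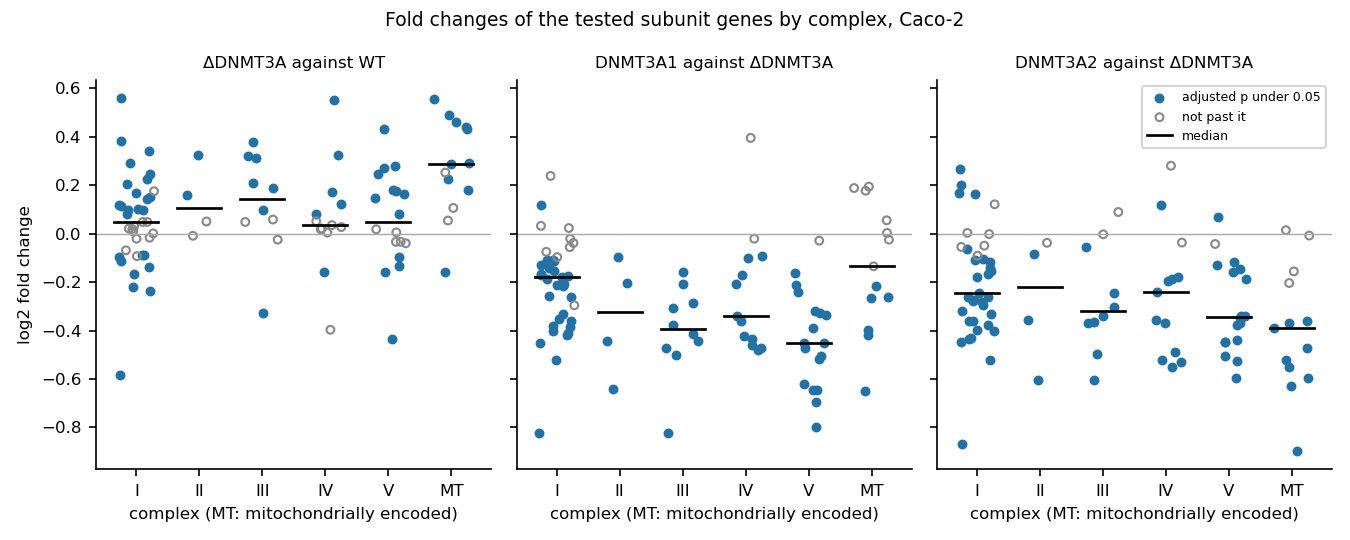
Log2 fold changes (y axis) of the 95 tested subunit genes by complex (x axis), in ΔDNMT3A against WT, DNMT3A1 against ΔDNMT3A and DNMT3A2 against ΔDNMT3A. Filled points passed an adjusted p of 0.05, open points did not, and bars are medians. The medians of all complexes lie above 0 in the first panel and below 0 in the others.

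Against WT, the DNMT3A deletion line carrying DNMT3A1 had 62 of the 95 genes lower and 13 higher, beside 32.7% lower and 32.6% higher of all 17029 genes. Of these, 10 were lower and 2 higher by 1.5-fold or more (9.43% and 14.6% of all genes). Complex V held 6 of the 10, namely ATP5MF, ATP5PF, ATP5F1E, ATP5MK, ATP5MC1 and ATP5ME. ATP5MF was at 102, 92.8, 98.3 and 103 CPM in WT and at 57.3, 54.2 and 57.3 CPM in DNMT3A1 (log2 fold change -0.82 with a standard error of 0.040, adjusted p = 1.65e-15), beside -0.29 for its neighbours. ATP5PF, coupling factor 6 of ATP synthase, fell from 79.8 ± 1.58 CPM (SD, n = 4) to 48.4 ± 1.32 CPM (SD, n = 3). The genes that rose most were MT-ND1 (log2 fold change 0.75), MT-ND2 (0.69) and COX7A2L (0.54, beside 0.78 for its neighbours). The libraries labelled DNMT3A2 had 64 genes lower than WT and 12 higher, beside 34.4% and 34.3% of all 16360 genes. By 1.5-fold or more, 4 were lower and none higher (13.5% and 9.27% of all genes), namely MT-CO3, UQCRC1, ATP5MC1 and ATP5MF. ATP5IF1, the inhibitor of ATP synthase, had the highest log2 fold change there, 0.32, with 68.4, 69.2, 69.6 and 68.7 CPM in WT and 87.5, 86.5, 87.3 and 85.96 CPM in DNMT3A2, but its neighbours had a median of 0.32 too.

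The mitochondrial genes did not all move one way. In DNMT3A1 against WT, 7 of the 13 were higher and 3 lower, with a median log2 fold change of 0.25, whereas their summed level was lower, 4710 ± 204 CPM (SD, n = 3) against 5570 ± 284 CPM (SD, n = 4). MT-CO3, the gene with the highest level of the 13 in WT, was at 2333, 2493, 2353 and 2248 CPM in WT and at 1301, 1384 and 1380 CPM in DNMT3A1, which is -0.80 as log2 fold change (standard error 0.039, adjusted p = 1.94e-15). MT-ND1, read from another stretch of the same precursor transcript, was at 79.2, 79.1 and 75.3 CPM in DNMT3A1 and thus above all WT libraries. MT-ND6, the 1 protein gene on the other strand of the mitochondrial chromosome, rose in ΔDNMT3A and in both re-expression lines against WT, with log2 fold changes of 0.29, 0.28 and 0.29. In the libraries labelled DNMT3A2, DESeq2 gave MT-ND6 an adjusted p of 0.068.

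The isoform lines were also compared with each other. Of the 95 genes, 39 were higher in DNMT3A2 than in DNMT3A1 and 26 lower, beside 33.9% and 34.5% of all 16637 genes, and the median log2 fold change was 0.04. The counts differed between the genomes, with 38 of the 82 tested nuclear genes higher and 19 lower, but 1 mitochondrial gene higher and 7 lower. This difference was not tested. At 1.5-fold or more NDUFS6 and NDUFS4 were higher and NDUFB5, MT-ND3 and NDUFV2 lower (9.83% and 17.8% of all genes). NDUFS6 had the highest log2 fold change, 1.00 (0.995, standard error 0.035, adjusted p = 1.24e-18), with 104, 104, 109 and 108 CPM in DNMT3A2 against 51.4 to 54.9 CPM in DNMT3A1, and its neighbours had a median of 0.82. NDUFS4, another accessory subunit of complex I, was at 82.6, 82.6, 81.5 and 82.7 CPM in DNMT3A2 and at 49.7, 48.8 and 51.3 CPM in DNMT3A1 (log2 fold change 0.72, adjusted p = 1.14e-15), beside 0.48 for its neighbours. In complex V 13 of 18 genes were higher in DNMT3A2 and 2 lower.

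COX6B1 and COX5A, nuclear subunits of complex IV, both fell in DNMT3A1 against ΔDNMT3A, whereas in DNMT3A2 COX6B1 fell and COX5A rose. COX6B1 (chr19:35648223-35658861), which joins the monomers of the complex IV dimer, was at 212, 199, 214 and 220.4 CPM in WT and at 234, 226, 244 and 225 CPM in ΔDNMT3A. It was at 165, 161 and 176 CPM in DNMT3A1 and at 159.7, 164, 154 and 167 CPM in the libraries labelled DNMT3A2. The ΔDNMT3A libraries were the highest and those of both re-expression lines, which overlapped each other, the lowest. The log2 fold change was 0.12 in ΔDNMT3A against WT (standard error 0.032, adjusted p = 0.00153). Relative to ΔDNMT3A, DNMT3A1 gave -0.47 (standard error 0.036, adjusted p = 7.16e-10) and DNMT3A2 gave -0.53 (standard error 0.029, adjusted p = 7.64e-14), and its neighbours had medians of -0.02, 0.09 and 0.01. Between the isoform lines the difference was -0.06 (adjusted p = 0.137), which passed the threshold without DNMT3A1 replicate 2 (-0.09, adjusted p = 0.0227). COX5A (chr15:74919791-74938168), which binds on the matrix side of the complex, was at 133, 122, 119 and 126 CPM in WT and at 131, 119, 132 and 129 CPM in ΔDNMT3A, which overlapped (log2 fold change 0.02, adjusted p = 0.677). It was at 98.8, 97.3 and 102 CPM in DNMT3A1, below all other libraries, and at 136, 135, 142 and 144 CPM in DNMT3A2, above all others. Relative to ΔDNMT3A this is a log2 fold change of -0.36 for DNMT3A1 (adjusted p = 6.05e-08) and of 0.12 for DNMT3A2 (adjusted p = 0.0021). With the neighbours' median taken out, COX5A passed the threshold in ΔDNMT3A against WT (0.19, adjusted p = 4.42e-05) and no longer in DNMT3A2 against ΔDNMT3A (0.02, adjusted p = 0.624).

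**Figure D4:**
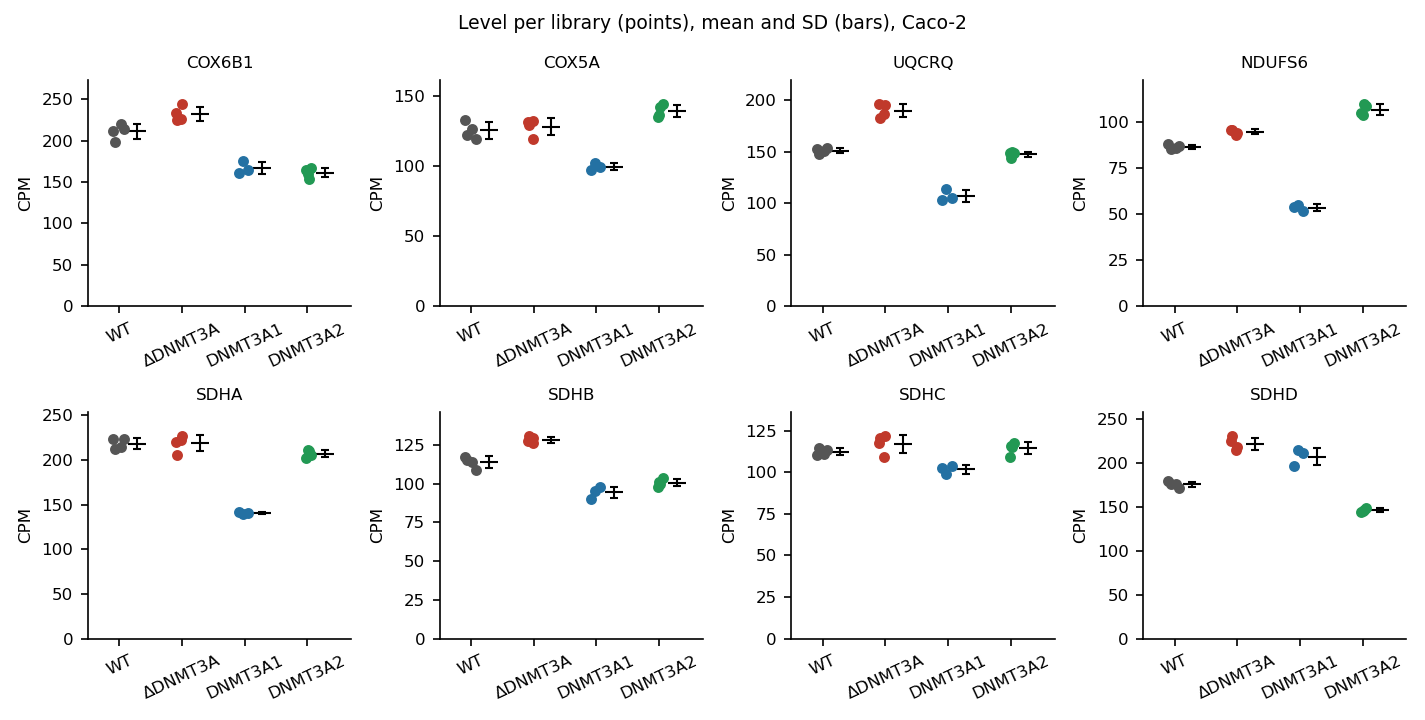
Levels in CPM (y axis, from 0) of COX6B1, COX5A, UQCRQ, NDUFS6 and the 4 subunits of complex II in each Caco-2 library, by line (x axis). Points are libraries and bars are mean and SD. COX6B1 is at 154 to 176 CPM in both re-expression lines, whereas COX5A, NDUFS6 and SDHA are lower in DNMT3A1 than in DNMT3A2, and SDHD is lower in DNMT3A2.

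The subunits of complex II, which is also the succinate dehydrogenase of the citric acid cycle, differed among themselves. SDHA, the flavoprotein that oxidises succinate (chr5:218241-256700), was at 224, 212, 223 and 214 CPM in the WT libraries and at 219.9, 222, 226 and 206 CPM in those of ΔDNMT3A. DNMT3A1 had 140.2, 141 and 139 CPM, and DNMT3A2 had 211, 202, 209.5 and 206 CPM. Only the DNMT3A1 libraries stood apart, with -0.64 on the log2 scale against ΔDNMT3A (standard error 0.034, adjusted p = 2.6e-12). Around SDHA the neighbours' median was -0.49 in that comparison. With it taken out, the log2 fold change of SDHA was -0.15 (adjusted p = 0.000552). In DNMT3A2 SDHA was slightly lower than in ΔDNMT3A (log2 fold change -0.08, adjusted p = 0.0085), with overlapping groups and neighbours at 0.41. SDHA has 4 pseudogenes, whose counts came to 20.2% of its own. SDHB, the iron-sulfur subunit, rose from 114 ± 3.63 to 128 ± 1.92 CPM in ΔDNMT3A (SD, n = 4 each) and reached 94.4 ± 3.73 CPM (SD, n = 3) in the DNMT3A1 libraries and 101 ± 2.39 CPM (SD, n = 4) in those labelled DNMT3A2. Both re-expression lines lay below WT, and the neighbours of SDHB had medians from 0.01 to 0.09 in all comparisons. SDHC, a membrane anchor, was lowest in DNMT3A1, with 102 ± 2.65 CPM (SD, n = 3), beside 112 ± 2.05 CPM for WT, 117 ± 5.47 for ΔDNMT3A and 114 ± 3.63 for DNMT3A2 (SD, n = 4 each). It fell in DNMT3A1 against ΔDNMT3A (log2 fold change -0.20, adjusted p = 8.57e-05). SDHC did not pass the threshold in ΔDNMT3A against WT (0.05, adjusted p = 0.174) or in DNMT3A2 against ΔDNMT3A (-0.04, adjusted p = 0.304), but it did in both without ΔDNMT3A replicate 2 (0.08, adjusted p = 0.0231, and -0.07, adjusted p = 0.0443) and with a trend of the counts with gene length taken out (0.10, adjusted p = 0.0156, and -0.13, adjusted p = 0.00147). SDHD, the other anchor, was at 179, 175, 172 and 176 CPM in the WT libraries and at 224, 214.5, 217 and 229.8 CPM in those of ΔDNMT3A. DNMT3A1 had 210.5, 196 and 214 CPM, and DNMT3A2 had 145, 145, 147 and 149 CPM. Its highest library in DNMT3A2 was below the lowest in WT (log2 fold change -0.28 against WT and -0.61 against ΔDNMT3A). The fall of SDHD in DNMT3A1 against ΔDNMT3A (-0.10, adjusted p = 0.0203) missed the threshold without ΔDNMT3A replicate 1 (adjusted p = 0.0516), without ΔDNMT3A replicate 4 (adjusted p = 0.0559) and without DNMT3A1 replicate 2 (adjusted p = 0.136), and with the length trend taken out (adjusted p = 0.132).

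The expressed forms of the isoform pairs of complex IV did not change in step. COX4I1 rose from 337 ± 6.37 to 425 ± 12.9 CPM in ΔDNMT3A (SD, n = 4 each, log2 fold change 0.33), and was lower than ΔDNMT3A in DNMT3A1 (-0.48) and in DNMT3A2 (-0.18). COX8A, the smallest subunit, fell in all 3 comparisons (-0.16, -0.42 and -0.37). With the neighbours' median taken out, COX4I1 was at 0.13, -0.17 and -0.24. COX8A then missed the threshold in ΔDNMT3A against WT (0.01, adjusted p = 0.751) and stayed lower in the re-expression lines (-0.31 and -0.315). COX6A1 and COX7A2 did not pass the threshold in ΔDNMT3A against WT (log2 fold changes 0.02 and 0.05), and NDUFA4, which is now counted to complex IV, rose by 0.08. All 3 fell against ΔDNMT3A in DNMT3A1 (-0.17, -0.34 and -0.21) and in DNMT3A2 (-0.52, -0.24 and -0.36). With the neighbours' median taken out, these values were -0.13, -0.57 and -0.35 in DNMT3A1 and -0.13, -0.31 and -0.55 in DNMT3A2. In ΔDNMT3A against WT, NDUFA4 then missed the threshold (0.003, adjusted p = 0.944) and COX7A2 passed it (0.09, adjusted p = 0.0115). COX6A1 was lower in DNMT3A2, at 77.3 ± 2.78 CPM (SD, n = 4), than in DNMT3A1, at 98.3 ± 5.29 CPM (SD, n = 3), as were its neighbours (log2 fold change -0.35, median of the neighbours -0.31).

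Markers of epithelium moved between the lines as well. Their summed level was 8900 to 9170 CPM in WT, 11400 to 12000 in ΔDNMT3A, 9430 to 9580 in DNMT3A1 and 7730 to 7970 in DNMT3A2, and 5 of 7 tested rose in ΔDNMT3A, whereas 5 and 7 of the 7 fell from there in DNMT3A1 and DNMT3A2. Of all genes tested, 31.2% were higher in ΔDNMT3A than in WT, and 30.3% and 34.1% were lower in DNMT3A1 and DNMT3A2 than in ΔDNMT3A. Those markers of mature absorptive colonocytes that were found by name were near absent from all 4 lines, with sums of 1.45 to 5.65 CPM. They were 4 genes, beside 6 in mouse, since Car1 and Car4 are mouse symbols and their human counterparts were not looked up. The part of these markers in the values of the subunit genes was not tested.

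Other mitochondrial gene lists were read beside the subunits. The counts stand beside 31.2% higher and 31.0% lower of all genes tested in ΔDNMT3A against WT, 30.4% and 30.3% in DNMT3A1 against ΔDNMT3A, and 33.8% and 34.1% in DNMT3A2 against ΔDNMT3A. Of 51 assembly factors, which build the complexes but are not part of them, 18 rose and 10 fell in ΔDNMT3A against WT, 6 rose and 33 fell in DNMT3A1 against ΔDNMT3A, and 10 rose and 23 fell in DNMT3A2 against ΔDNMT3A. SDHAF3, an assembly factor of complex II, had the lowest log2 fold change of the list in the first and the second of these, -2.24 and -2.89, and the highest in the third, 1.21. Its levels were low, with means of 4.64 CPM in WT, 0.991 in ΔDNMT3A and 0.128 in DNMT3A1, so that the value in DNMT3A1 rests on few reads. In ΔDNMT3A against WT its log2 fold change had a standard error of 0.129 (adjusted p = 2.18e-13). Of 78 mitochondrial ribosomal protein genes, 47 rose and 12 fell in ΔDNMT3A, 2 rose and 66 fell in DNMT3A1 against ΔDNMT3A, and 17 rose and 35 fell in DNMT3A2 against ΔDNMT3A. Of 18 citric acid cycle genes, 13 rose and 3 fell in ΔDNMT3A, 2 rose and 13 fell in DNMT3A1 against ΔDNMT3A, and 5 rose and 12 fell in DNMT3A2 against ΔDNMT3A. Glycolysis genes gave similar numbers, with 13 of 18 higher and 2 lower in ΔDNMT3A, and 10 and 12 lower in the re-expression lines, although HK1, a hexokinase, rose in both (log2 fold changes 0.81 and 0.94). Of 37 tested regulators of mitochondrial biogenesis, 16 rose and 7 fell in ΔDNMT3A, where PPARA fell most (-1.25), 4 rose and 24 fell in DNMT3A1 against ΔDNMT3A, and 13 rose and 16 fell in DNMT3A2 against ΔDNMT3A. Of 84 tested cytosolic ribosomal protein genes, which are short and highly expressed like the subunit genes, 14 rose and 37 fell in DNMT3A1 against ΔDNMT3A, with a median log2 fold change of -0.05, and 57 rose and 14 fell in DNMT3A2 against ΔDNMT3A, with a median of 0.18.

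In mouse colonic epithelium no subunit gene passed the threshold by edgeR, but nearly all had values above those of fl/fl. Of the 86 genes 80 were tested, and none was called higher or lower in ΔIEC by edgeR, beside 0.602% higher and 0.0889% lower of all 14626 genes tested (0.561% and 0.0820% with a fold of at least 1.5). At an unadjusted p under 0.05, 67 of the 80 were higher and none lower, beside 7.99% and 6.09% of all genes. DESeq2, which the study used for its own calls, called 16 higher and none lower, beside 1.48% and 0.712% of its 16010 genes. The log2 fold change was above 0 for 78 of the 80 genes (49.4% of all genes), with a median of 0.34 (all genes, -0.004) and a range from -0.43 to 0.54. In 48 of the 80, every ΔIEC library lay above every fl/fl library, beside 6.16% of all genes, and in none did every ΔIEC library lie below (4.10% of all genes). The median by complex was 0.42 in complex III, 0.36 in V, 0.35 in I, 0.33 in IV and 0.28 in II. No gene of the mitochondrial chromosome was analysed here for the mouse.

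**Figure D5:**
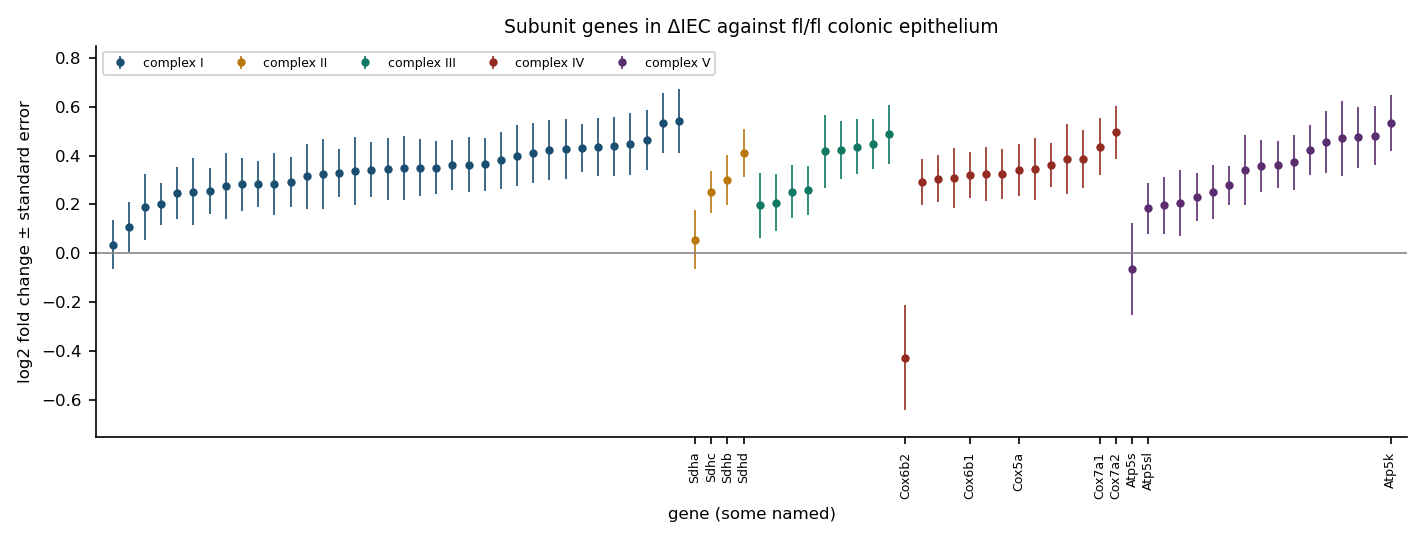
Log2 fold change in ΔIEC against fl/fl colonic epithelium (y axis) with its standard error (bars) for the 80 tested subunit genes (x axis), ordered by complex and value and with some genes named, 4 libraries a group. All but Cox6b2 and Atp5s lie above 0, and none passed an adjusted p of 0.05 by edgeR.

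Atp5k, the mouse name of the gene for the e subunit of ATP synthase (ATP5ME in human), had the lowest adjusted p, 0.0851. It was at 114, 82.4, 108 and 102 CPM in fl/fl and at 153, 145, 129 and 161 CPM in ΔIEC, which is 0.53 as log2 fold change (standard error 0.115). Cox6b1 was at 246, 222, 218 and 225 CPM in fl/fl and at 299, 261, 270.5 and 307 CPM in ΔIEC (log2 fold change 0.32 with a standard error of 0.094, adjusted p = 0.187, and 0.046 by DESeq2). The groups did not overlap for either gene. Cox5a was at 109, 90.7, 105 and 119 CPM in fl/fl and at 131, 143, 119 and 144 CPM in ΔIEC, where the lowest ΔIEC library and the highest fl/fl library overlapped (log2 fold change 0.34, adjusted p = 0.207). Of complex II, Sdhd was at 142, 115, 122 and 139 CPM in fl/fl and at 187, 171, 156 and 173 CPM in ΔIEC, a difference of 0.41 on the log2 scale (adjusted p = 0.136, and 0.014 by DESeq2). Sdhb and Sdhc had log2 fold changes of 0.30 and 0.25 with groups that did not overlap (adjusted p = 0.246 and 0.233), and Sdha one of 0.06 with groups that did (adjusted p = 0.877). Cox7a1, the heart and muscle form of its subunit, was at 24.8 ± 2.55 CPM in fl/fl and 33.6 ± 4.25 CPM in ΔIEC (SD, n = 4 each), with groups that did not overlap (log2 fold change 0.44, adjusted p = 0.159). The value of Cox6b2, the testis form, was -0.43, with 8.72 CPM in 1 fl/fl library and 4.08 to 5.78 CPM in the others of both groups. Atp5s and Atp5sl, which the rule takes in by name, are older names of genes for other mitochondrial proteins and not for subunits. The mouse counterparts of ATP5MK, ATP5IF1 and ATP5MJ are listed under other names (Usmg5, Atpif1 and 2010107E04Rik), and had log2 fold changes of 0.56, 0.43 and 0.40 (adjusted p = 0.149, 0.268 and 0.155).

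A single fl/fl library stood apart from the others in these genes. Against the fl/fl mean, the median log2 level of the 80 genes was 0.15, -0.23, 0.02 and 0.08 in the fl/fl libraries and 0.40, 0.33, 0.22 and 0.42 in ΔIEC, so that the second fl/fl library was the lowest. That library stood apart in absorptive colonocyte markers too, most of which were high. Aqp8 was at 3070 CPM, beside 1120 to 1530 CPM in the other fl/fl libraries. Car4 (4060 CPM), Slc26a3 (3780 CPM), Ceacam20 (837 CPM) and Slc37a2 (406 CPM) were also highest there among fl/fl. Car1 alone was low, at 1060 CPM, beside 3790 to 4830 CPM. The goblet markers Tff3, Clca1, Fcgbp and Zg16, but not Muc2, were highest there as well. The enteroendocrine markers Chga, Chgb and Neurod1 were lowest. Without this library the median log2 fold change of the subunit genes was 0.27, and still no gene was called. Cytosolic ribosomal protein genes also had values above those of fl/fl, at a median log2 fold change of 0.44 with none of 82 called, as did mitochondrial ribosomal protein genes (0.26, none of 76 called). With a trend of the counts with gene length taken out, the median of the subunit genes was 0.28. Of the marker lists, tuft cell markers had all 3 genes called higher, with a summed level of 103 to 129 CPM in ΔIEC against 31.1 to 40.3 CPM in fl/fl. The sums for absorptive colonocytes (8830 to 13700 CPM against 9890 to 13200), goblet cells (16100 to 29200 against 22100 to 34500), cycling and stem cells (284 to 532 against 341 to 719), enteroendocrine cells (273 to 324 against 123 to 498) and epithelium (10200 to 14000 against 9820 to 12100) overlapped. Immune markers summed to 8.66 to 11.0 CPM against 6.20 to 10.2, and stromal markers to 20.3 to 26.6 CPM against 26.5 to 32.8. The part of these lists in the values of the subunit genes was not tested.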

How the data were processed

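RNA-seq gene counts of 15 Caco-2 libraries (WT 4, ΔDNMT3A 4, DNMT3A1 3, DNMT3A2 4) and of 8 libraries of mouse colonic epithelium (4 fl/fl, 4 ΔIEC) were used. Per the labels and file headers, the authors trimmed reads with Trim Galore 0.4.4, aligned them with STAR 2.5.2b to GRCh38 or GRCm38 and deposited raw counts per gene from featureCounts, by strand for the human and without strand for the mouse libraries, with version 1.5.2 in the human and 1.6.4 in the mouse headers. Reads that map to several places were not counted, which lowers genes with near-identical pseudogenes. The deposited gene length in bases, which has no unit of reads, served for CPM per kb.

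Each pair of groups was fitted alone with edgeR 4.0.16 in R 4.3.3 (filterByExpr, TMM, glmQLFTest, two-sided) over all genes, with Benjamini-Hochberg adjustment and a threshold of 0.05. The edgeR fit was tested on simulated data for ΔDNMT3A against WT and for the mouse comparison, and the other comparisons were not simulated. Alternatives were DESeq2 1.42.0, RLE scaling, no filter, no mitochondrial genes, all 4 Caco-2 groups in one fit, removal of a trend with gene length (lowess span 0.3), a fold of 1.5, the replicate number as a block, each library left out, and, chosen after the data were seen, removal of the median change of the 50 neighbouring genes. The members and lists were chosen with earlier results of these data known. Named with full values are COX6B1, COX5A, complex II, the isoform pairs and the 3 highest and 3 lowest called genes of a comparison at 1 CPM or more. Same-numbered libraries of different lines deviated together with correlations of -0.18 to 0.26, and other-numbered ones with -0.42 to 0.295. The numbers were therefore not taken as pairs. The mitochondrial genes, whose median was highest in replicate 2 of each line, were fitted without pairs too, which leaves that shift in their spread. Promoters were read from RefSeq tables, in which 71 genes had an entry. No protein sequences were used.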

Additional observations from a re-analysis of the deposited data

Results flagged for a closer look

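In 7 of 95 tested groups of 4 libraries (7.37%), among the genes named with full values, the gap of 1 library to the nearest other exceeded Dixon's critical share of the range, where chance alone gives about 1 in 20. In ΔDNMT3A, replicate 2 was the high one for MT-ND1 (90.9 CPM) and MT-ND2 (52.8 CPM) and the low one for ATP5MF (69.6 CPM), and replicate 3 was high for ATP5IF1 (84.6 CPM). Replicate 2 was also the highest library for MT-ND1 and MT-ND2 in WT (55.4 and 33.5 CPM) and in DNMT3A2 (67.1 and 40.7 CPM), and in each of the 4 lines it had the highest median over the 13 mitochondrial genes. In DNMT3A2, replicate 3 was low for NDUFS4 (81.5 CPM, the other libraries lying within 0.1 CPM of each other) and replicate 4 for NDUFV2 (5.02 CPM). In the mouse, fl/fl replicate 2 was low for Sdha (265 CPM).

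For 5 genes the re-expression lines moved in opposite directions from ΔDNMT3A, with every library of each on its side, and the difference between DNMT3A2 and DNMT3A1 passed the threshold of edgeR's quasi-likelihood test. Its log2 size was 0.31 for ATP5IF1, 0.48 for COX5A, 0.32 for NDUFAB1, 0.72 for NDUFS4 and 1.00 for NDUFS6 (0.995). With the neighbours' median taken out, none of the 5 was called higher in DNMT3A2 than in ΔDNMT3A: NDUFS6 was lower (-0.22, adjusted p = 1.98e-07), and the threshold was missed for COX5A (0.02, adjusted p = 0.624), NDUFS4 (0.07, adjusted p = 0.0608), NDUFAB1 (0.04, adjusted p = 0.303) and ATP5IF1 (0.01, adjusted p = 0.712).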

How the results depend on the processing

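The median log2 fold change of the subunit genes kept its direction in all 7 comparisons under every alternative. With each library left out in turn it was 0.07 to 0.09 in ΔDNMT3A against WT, -0.27 to -0.25 in DNMT3A1 and -0.30 to -0.27 in DNMT3A2 against ΔDNMT3A, and 0.27 to 0.39 in the mouse. With a fold of at least 1.5, the genes higher and lower were 0 and 0 in ΔDNMT3A against WT, 0 and 9 in DNMT3A1 and 0 and 7 in DNMT3A2 against ΔDNMT3A, 2 and 10 in DNMT3A1 and 0 and 4 in DNMT3A2 against WT, and 2 and 3 between the isoforms. The 1 gene higher in DNMT3A1 against ΔDNMT3A became 0 by DESeq2, 4 without the filter, 2 with all groups in one fit, 0 under the replicate block with the length trend removed, and 0 to 7 with a library left out. DESeq2 called 16 genes higher in the mouse, where edgeR called 0. Without the mitochondrial genes, 6 rather than 13 were higher in DNMT3A1 against WT, since 7 of the 13 were mitochondrial. With the neighbours' median removed, the genes higher were 1 in DNMT3A2 against ΔDNMT3A, 8 in DNMT3A1 and 7 in DNMT3A2 against WT. That setting turned the sign of SDHA (0.094), ATP5MF (0.013), UQCRC1 (0.018) and COX7A2L (-0.037) in ΔDNMT3A against WT, of NDUFA5 (-0.12) in DNMT3A1 and NDUFS6 (-0.22) in DNMT3A2 against ΔDNMT3A, of SDHD (-0.14) and COX7A2L (-0.24) in DNMT3A1 and SDHC (-0.066) and NDUFS6 (-0.072) in DNMT3A2 against WT, and of SDHA (-0.29) and NDUFB5 (0.10) in DNMT3A2 against DNMT3A1. The cause was not tested.

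The replicate block gave 48 genes higher and 17 lower in ΔDNMT3A against WT, 1 and 75 in DNMT3A1 and 6 and 73 in DNMT3A2 against ΔDNMT3A, and moved no count by over 1.5 times. Clone and condition cannot be told apart in Caco-2, with 1 clone per edited line. For the re-expression lines, isoform, vector and puromycin selection cannot be told apart either. In the mouse, the spread between 4 libraries a group limits what passes the threshold.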
